A study of Mus musculus with 16 samples.

Results

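Active chromatin of adult intestinal stem cells was compared with that of the gut epithelium of the E12.5 embryo (E for embryonic day). The measurement was ChIP-seq for H3K27ac, histone H3 acetylated at lysine 27, and the data are lists of called peaks. The adult cells were Lgr5-positive intestinal stem cells (ISC), sorted for high EGFP from the crypts of the small intestine of male Lgr5EGFP-Cre-ERT mice at postnatal day 60. The reporter marks cells by expression from the Lgr5 locus, so the sort defines the population by that gene. The embryonic cells were small-intestinal epithelium sorted for EpCAM, an epithelial surface protein, and against CD31 (endothelium) and CD45 (leukocytes). They are the whole epithelium of that age and not a sorted progenitor. All groups were of mixed C57BL/6 CD1 strain. The labels give neither sex nor reporter genotype for the embryos. Each group had 2 libraries, described as biological duplicates. The labels do not say whether animals were pooled, and p-values therefore reflect only how far these libraries spread. Epithelium of E14.5 embryos and enterocytes of adult Lgr5EGFP-Cre-ERT males, gated like the embryonic cells and also taken at postnatal day 60, had 2 libraries each. These served to place the changes in time.

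Peaks of the 4 libraries were merged where they overlapped or touched. A region was called gained when both ISC libraries and neither E12.5 library had a peak in it, and lost in the reverse case. By this rule 10010 regions were gained and 9351 were lost, which is 19361 of 70987 merged regions. The whole series of 8 libraries merges into 79482 regions.

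H3K27ac is deposited by the acetyltransferases p300 and CBP and marks promoters and enhancers in use. Stretches of dense, broad acetylation often lie at genes that define a cell type. At E12.5 the gut tube is lined by a proliferating epithelium that has not yet formed villi. Villi emerge from about E14.5, and crypts with Lgr5-positive stem cells form after birth. The stem cells renew the lining throughout adult life and give rise to the absorptive enterocytes of the villus.

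The 4 libraries compared held 37.9 to 42.1 M ChIP tags, and the E14.5 and enterocyte libraries 34.6 to 54.6 M. Peaks covered 43.6 and 59.99 Mb at E12.5 and 51.2 and 76.1 Mb in ISC. Replicate 2 covered more than replicate 1 in both groups, and peaks of 10 kb or more numbered 342 in ISC replicate 2 but 85 in ISC replicate 1. The labelled cell types were not checked against marker genes, because gene positions on the build of the files, mm9, were not used here. For the same reason regions are named by position.

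Gains and losses were similar in number but not in length. Gained regions summed to 15.3 Mb and lost regions to 10.7 Mb. Gained regions were 14.1% of the merged regions and lost regions 13.2%, while 17982 regions, 25.3%, were present in all 4 libraries. A further 33644 regions were neither gained, lost nor in all 4. Most of these were seen in a single library: 14715 in ISC replicate 2 only and 10737 in E12.5 replicate 2 only, against 449 in ISC replicate 1 only and 1618 in E12.5 replicate 1 only. An exact two-sided permutation test of 2 against 2 libraries cannot give a p below 0.33 for a single region, so the counts carry no p-value.

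**Figure D1:**
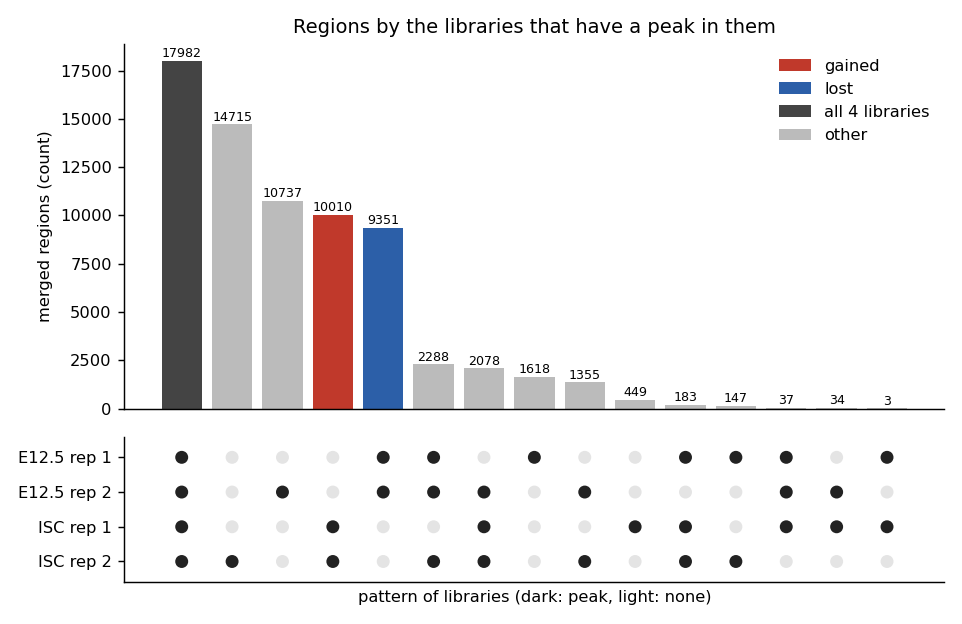
Bars give the number of merged regions for each pattern of presence, and the dots under each bar show which of the 4 libraries had a peak. The 10010 gained (red) and 9351 lost (blue) regions are similar in number, and the 14715 regions of ISC replicate 2 alone form the second-highest bar.

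The balance of gained and lost regions moved with the libraries and peaks used, and lost regions were the more numerous in 3 of the settings that follow. Without ISC replicate 1 there were 25163 gained and 9393 lost regions, and without ISC replicate 2 17439 and 11956. Without E12.5 replicate 1 there were 10197 gained and 20958 lost, and without E12.5 replicate 2 12200 and 15141. The criterion is easier to meet for a group reduced to a single library. With only peaks of −log10 q 10 or more, 6334 regions were gained and 3742 lost. When every list was reduced to the covered length of the smallest, 1395 were gained and 5469 lost. In that setting the long peaks of ISC replicate 2 filled the length with 13315 peaks, against 46710 in E12.5 replicate 1.

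Gained and lost regions were shorter and weaker than the regions common to both ages. The median gained region spanned 1221 bp and the median lost region 844 bp, against 2347 bp for regions in all 4 libraries. Strength was read as the rank of a region's best −log10 q within its own list. The median percentile of gained regions was 36.5 in ISC replicate 1 and 55.9 in replicate 2, and that of the common regions 77.4 and 81.7. The median percentile of lost regions was 36.4 and 51.2 in the E12.5 lists, and that of the common regions 76.1 and 80.6. These values come from the lists that defined the regions and are a description.

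Just outside the rule were 2261 regions with peaks in both ISC libraries and 1 E12.5 library, 2078 of them in E12.5 replicate 2. Another 2325 had peaks in both E12.5 libraries and 1 ISC library, 2288 of them in ISC replicate 2. The former were covered over a median of 809 bp in ISC replicate 1 and 1422 bp in replicate 2, longer than the 618 and 1203 bp of gained regions. The latter were covered over a median of 630 and 1018 bp in the E12.5 libraries, against 519 and 787 bp in lost regions.

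The 2 libraries of E14.5 epithelium, which the rule did not use, show how much of the difference was already in place a short time after E12.5. Of the 10010 gained regions, 2956, or 29.5%, had a peak in both E14.5 libraries, 1107 in 1 and 5947 in neither. Of the 9351 lost regions, 3284, or 35.1%, had a peak in neither E14.5 library, 1411 in 1 and 4656, or 49.8%, in both. Most gained regions were therefore not called at E14.5, and lost regions were more often still called in both libraries than gone from both. By 1 library at a time, 37.8% and 32.3% of gained regions were present and 37.9% and 47.4% of lost regions were absent in E14.5 replicates 1 and 2.

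For comparison, 98.2% of the regions in all 4 libraries had peaks in both E14.5 libraries. The share was 77.8% for regions of both ISC libraries and 1 E12.5 library, and 10.2% for regions of 1 ISC library alone. It was 83.7% for regions of both E12.5 libraries and 1 ISC library, and 19.1% for regions of 1 E12.5 library alone. Gained regions, at 29.5%, and lost regions, at 49.8%, lie between these neighbours of the rule. Without ISC replicate 1, which admits the many short regions of replicate 2, the share of gained regions present at E14.5 was 18.03%. In the other settings it was 22.3 to 38.1%.

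The share of regions with E14.5 peaks rose with length among both gains and losses. Regions were graded by the smaller of the covered lengths in the 2 libraries that had them. Among gained regions of up to 500 bp, 19.1% of 4229 had peaks in both E14.5 libraries. The share rose with each length class to 62.3% of the 199 gained regions over 4 kb. Among lost regions of up to 500 bp, 47.5% of 4756 were gone from both E14.5 libraries, and only 4 of the 119 lost regions over 4 kb were gone, while 94.1% still had a peak in both. A peak of any length counts here, so a region that had shortened is still counted as present.

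A longer region offers more room for a peak that touches it, so the criterion bears on these shares. When a library had to cover at least 50% of a region, 40.2% of 969 gained and 73.4% of 305 lost regions over 4 kb counted as present in both E14.5 libraries. The 50% criterion also redefined which regions were gained or lost. These sets are larger than the 199 and 119 of the main rule, so the shares are not of the same regions. With lists of equal covered length the shares were 26.5% and 71.2%, and the share over gained regions of all lengths was then 22.3%, close to that of the long ones. The lost share was above the gained share in each of the 12 settings run.

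**Figure D2:**
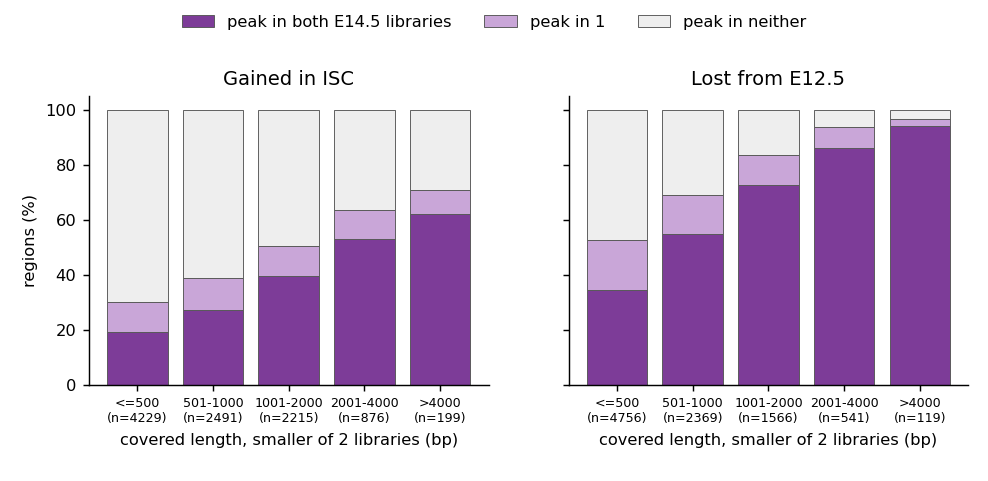
Stacked bars give the percentage of gained (left) and lost (right) regions with a peak in both, 1 or neither E14.5 library, by covered length in bp; n is the number of regions. The share present in both rises with length in both panels, from 19.1% to 62.3% for gains and from 34.5% to 94.1% for losses.

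The extent of a region is set by the peaks of the group that has it, and coverage by other groups was counted only within it. A smaller E14.5 coverage is thus partly fixed by the rule, and the lengths here are a description. The 2956 early gains were covered over a median of 804 and 677 bp in the E14.5 libraries, against 997 and 1606 bp in the ISC libraries. In 51.1% of them both E14.5 libraries covered less than either ISC library, and in 1.96% both covered more. Peaks of the E14.5 libraries covered 49.9% and 43.7% of the summed length of these regions, and those of the ISC libraries 68.7% and 99.2%.

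For the 4656 lost regions still called in both E14.5 libraries, the extent is that of the E12.5 peaks, so the values are not comparable with those of the gained regions. The E14.5 libraries covered 70.2% and 60.4% of their summed length, against 74.0% and 96.4% in the E12.5 libraries. In 37.1% of them both E14.5 libraries covered less than either E12.5 library, and in 6.81% both covered more.

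Changes that were strong in their own lists were called at E14.5 more often than gained and lost regions as a whole. In 320 gained regions the percentile was 75 or more in each ISC list. Of these, 216, or 67.5%, had a peak in each E14.5 library, against 29.5% of all gained regions. Another 84, or 26.25%, had no E14.5 peak, against 59.4% of all gained regions. Most strong gains, unlike most gains, thus had a peak in both E14.5 libraries. A peak of any length counts here too, and the shares of strong regions were computed under the main rule only. In 409 lost regions the percentile was 75 or more in each E12.5 list. Of these, 384, or 93.9%, were still found in both E14.5 libraries, against 49.8% of all lost regions.

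The longest gained region extended on chromosome 6 from 94593775 to 94613012. Peaks covered 16.9 and 18.97 kb of it in the ISC libraries and none at E12.5. The E14.5 libraries had 4.18 and 2.50 kb and the enterocyte libraries 0 and 1.15 kb. These long regions were chosen by their ISC length, so the values of interest are those of the E14.5 and enterocyte libraries. The next, on chromosome 14 from 80398690 to 80416407, had 15.7 and 17.7 kb in ISC and none at E12.5. It had 0 and 0.245 kb at E14.5 and none in enterocytes, so 1 short peak was all that the other groups had in it.

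On chromosome 2 from 38384272 to 38398612, peaks covered 13.5 and 14.3 kb in ISC, 4.03 and 2.73 kb at E14.5 and 6.90 and 5.33 kb in enterocytes. A region on chromosome 10 from 94573607 to 94585946 had 9.96 and 12.3 kb in ISC but only 0.683 and 0.329 kb at E14.5, and 3.14 and 4.62 kb in enterocytes. On chromosome 19 from 55862893 to 55873576, the ISC libraries had 9.57 and 10.7 kb, the E14.5 libraries 4.78 and 2.095 kb and the enterocyte libraries 4.35 and 4.86 kb.

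The region on chromosome 1 from 67157448 to 67167262 was the nearest to its adult length at E14.5 among the 8 longest gains. The E14.5 libraries had 7.42 and 7.32 kb, the ISC libraries 9.40 and 9.81 kb and the enterocyte libraries 1.53 and 3.90 kb. On chromosome 8 from 72709366 to 72719549, ISC had 9.35 and 10.2 kb, E14.5 2.31 and 2.33 kb and enterocytes 5.76 and 8.48 kb. On chromosome 15 from 97754883 to 97764211, ISC had 9.16 and 9.33 kb, E14.5 1.13 and 0.898 kb and enterocytes 4.85 and 5.52 kb. Over these 8 regions the E14.5 libraries ranged from 0 to 7.42 kb and the enterocyte libraries from 0 to 8.48 kb.

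Gains that were absent from both E14.5 libraries were somewhat shorter than these. The longest 3 had no peak in any embryonic library. On chromosome 12 from 78292926 to 78301524, peaks covered 8.29 and 8.60 kb in ISC and 4.46 and 6.61 kb in enterocytes. On chromosome 15 from 85528583 to 85536811, ISC had 7.75 and 8.23 kb and enterocytes 8.03 and 8.00 kb. Peaks of both cell types thus covered nearly the whole region. Its extent is set by the ISC peaks, and enterocyte coverage beyond it was not counted. On chromosome 17 from 16136314 to 16145204, ISC had 7.90 and 8.89 kb and enterocytes none. With lists of equal covered length this region no longer met the criterion.

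**Figure D3:**
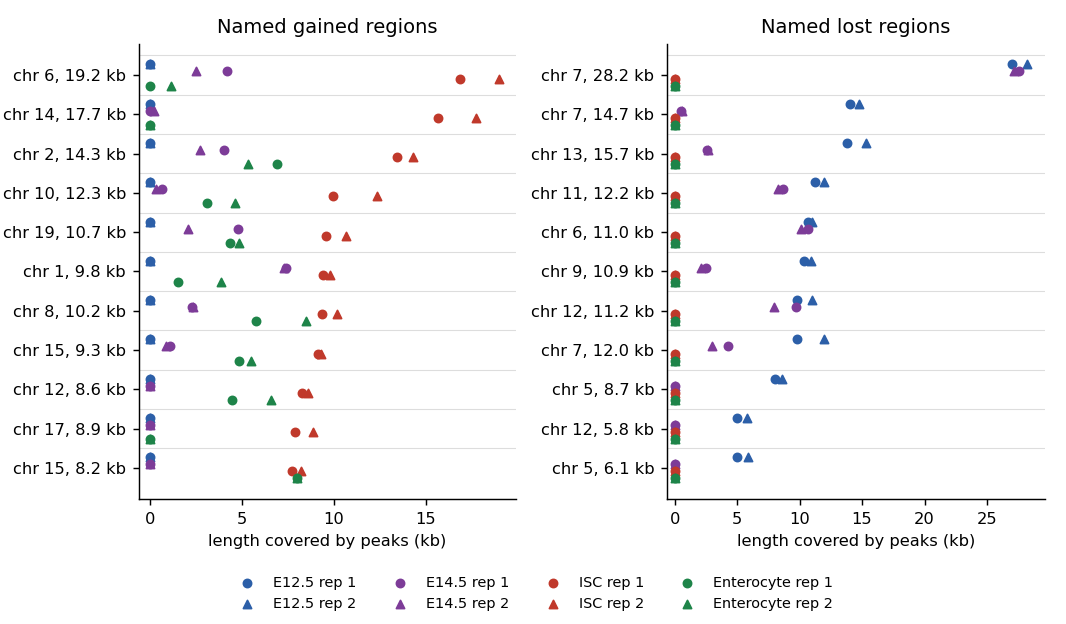
Points give the length in kb covered by peaks in each of the 8 libraries (circles replicate 1, triangles replicate 2) for 11 gained and 11 lost regions, labelled by chromosome and region length. The E14.5 points lie low or at 0 in most gained regions, and range from 0 to the full E12.5 length in the lost regions.

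The longest lost region lay near the distal end of chromosome 7, from 149737366 to 149765568. Peaks covered 27.01 and 28.2 kb of it at E12.5 and none in ISC or enterocytes. The E14.5 libraries had 27.5 and 27.1 kb. It ranked above the 97th percentile of all 4 embryonic lists and had no peak in the adult lists. A region on chromosome 6 from 49168195 to 49179161 likewise kept nearly its full length. The E12.5 libraries had 10.7 and 10.97 kb and the E14.5 libraries 10.7 and 10.1 kb. On chromosome 12 from 25808878 to 25820053, E12.5 had 9.78 and 11.02 kb and E14.5 9.74 and 7.95 kb. On chromosome 11 from 18912358 to 18924507, E12.5 had 11.2 and 11.9 kb and E14.5 8.66 and 8.30 kb. In these 4 most of the covered length was lost after E14.5.

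In the other 4 of the 8 longest losses most of the acetylated length was gone by E14.5, although a peak remained. On chromosome 7 from 6801227 to 6815970, the E12.5 libraries had 14.04 and 14.7 kb and the E14.5 libraries 0.488 and 0.583 kb. A neighbouring region, from 6860968 to 6872993, went from 9.78 and 12.0 kb to 4.31 and 3.02 kb. On chromosome 13 from 28744950 to 28760607, the E12.5 libraries had 13.8 and 15.3 kb and the E14.5 libraries 2.60 and 2.67 kb. On chromosome 9 from 110640634 to 110651512, it went from 10.3 and 10.9 kb to 2.51 and 2.08 kb. In each of them both E14.5 libraries covered less than either E12.5 library, as in 37.1% of the 4656 lost regions still called at E14.5. The regions were chosen by their E12.5 length, which favours such a drop, and absence from ISC is part of the rule. Neither enterocyte library had a peak in them. Such regions count as still present at E14.5 by the rule, so the count of early losses leaves out shortening of this kind.

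Lost regions that were gone at E14.5 were shorter. The longest 3 were on chromosome 5 from 117116821 to 117125525, with 8.03 and 8.59 kb at E12.5, on chromosome 12 from 98361589 to 98367387, with 5.03 and 5.79 kb, and on chromosome 5 from 103241588 to 103247672, with 4.95 and 5.89 kb. None of the 6 later libraries had a peak in any of them.

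In enterocytes, the adult progeny of the stem cells, lost regions stayed without peaks, while gained regions were divided. Of the 9351 lost regions, 97.1% had no peak in either enterocyte library and 136, or 1.45%, had one in both. Of the 10010 gained regions, 3796, or 37.9%, had peaks in both enterocyte libraries and 5250, or 52.4%, in neither. In regions present in all 4 ISC and E12.5 libraries the share in both enterocyte libraries was 70.5%. Enterocyte lists were the shortest of the series, with 36439 and 35614 peaks, and their part in these absences was not tested. Without ISC replicate 1 the share of gained regions in both enterocyte libraries was 24.5%. With all 6 lists, enterocytes included, reduced to the covered length of the shortest, it was 79.7%. Both settings redefined which regions were gained. Gained regions in both enterocyte libraries numbered 6158 and 865 in these settings, against 3796 by the main rule.

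Gains that were in place at E14.5 were more often found in enterocytes. Of the 2956 early gains, 52.6% had peaks in both enterocyte libraries and 37.6% in neither. Of the 5947 gains absent from E14.5, 30.05% were in both and 60.4% in neither. Early gains were also longer, with a median of 1617 bp against 1061 bp, and the share in both enterocyte libraries rose with length from 24.6% of gains up to 500 bp to 72.9% of those over 4 kb. Altogether 3593 gained regions, 35.9%, were found in ISC and in none of the libraries of the other groups, and 1554, 15.5%, were in both libraries of E14.5, ISC and enterocytes. Among lost regions, 4461, or 47.7%, were in both libraries of both embryonic ages and in no adult library.

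**Figure D4:**
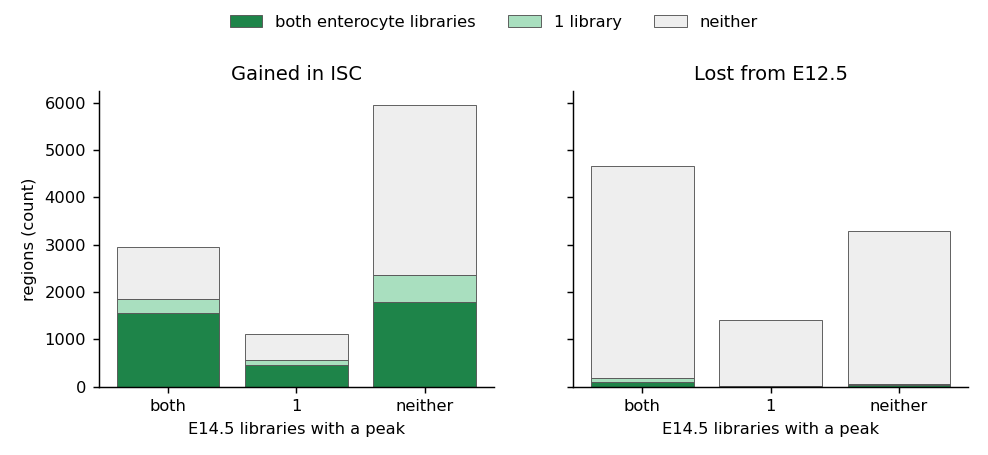
Bars give the number of gained (left) and lost (right) regions by how many E14.5 libraries had a peak, and colours give how many enterocyte libraries had one. The dark green share is 52.6% of gains present in both E14.5 libraries and 30.05% of gains present in neither, and is barely visible among the losses.

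Gained regions lay near other gained regions and lost near lost, and the kinds seldom met. The median distance from a gained region to the next gained region was 9.22 kb, and to the nearest lost region 129 kb. For lost regions the distances were 7.90 kb to the next lost and 128 kb to the nearest gained region. Within 5 kb, 41.6% of gained regions had another gained region and 1.82% had a lost one. Regions of the remaining mixed patterns had a gained neighbour within 5 kb in 20.6% of cases and a lost one in 16.9%. Neighbouring regions may be parts of the same acetylated domain, so these are not independent events. Regions present in all 4 libraries lay within 20 kb of 58.2% of gained regions. That is near the 59.4% of regions of mixed patterns and the 63.8% of regions in all 4 libraries themselves. The share was lower for lost regions, 40.2%, and for losses already gone at E14.5, 34.8%.

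Some stretches of the genome held many changed regions. Among fixed 200 kb stretches, that on chromosome 9 from 66000001 to 66200000 held the most gained regions, 15, and 1 lost region. Peaks covered 47.4 and 70.4 kb of it in ISC. The E12.5 libraries had 2.91 and 3.89 kb, the E14.5 libraries 12.4 and 10.4 kb and the enterocyte libraries 16.7 and 17.6 kb. The ISC libraries lay far above all others there. The stretch on chromosome 7 from 139800001 to 140000000 held 14 gained regions and no lost one. Peaks covered 0.82 and 2.35 kb of it at E12.5 and already 16.5 and 14.04 kb at E14.5. ISC had 32.7 and 56.0 kb there and enterocytes 27.6 and 32.1 kb. On chromosome 8 from 107200001 to 107400000 there were 14 gained regions and no peak at E12.5. ISC had 12.6 and 18.1 kb there, enterocytes 11.7 and 15.8 kb and E14.5 2.37 and 1.65 kb, so the adult libraries overlapped.

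The stretch with the most lost regions, 23, was on chromosome X from 132600001 to 132800000. Peaks covered 22.3 and 28.8 kb of it at E12.5. The E14.5 libraries had 12.9 and 8.83 kb, the ISC libraries 1.30 and 2.27 kb and the enterocyte libraries none. On chromosome 13 from 53200001 to 53400000 there were 22 lost and 1 gained region, with 46.4 and 65.3 kb at E12.5 and 5.31 and 10.8 kb in ISC. On chromosome 12 from 81000001 to 81200000 there were 21 lost and 1 gained region, but 11 regions were in all 4 libraries, and 22.4 and 31.6 kb of peaks remained in ISC. At E14.5 these last 2 stretches still had 43.1 and 33.7 kb, and 53.4 and 44.7 kb.

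Over the 19 autosomes, gained regions made up 12.6% (chromosome 2) to 15.8% (chromosome 19) of the merged regions, and lost regions 10.9% (chromosome 19) to 16.2% (chromosome 12). On chromosome X the shares were 13.2% gained, within the autosomal range, and 16.3% lost, just above it. The adult mice were male and the embryos' sex is not stated, so age and sex cannot be told apart on this chromosome. By windows, described next, chromosome X had the lowest share higher in ISC of the chromosomes with more than 5 windows tested, 18% of 750, and the highest share lower, 32.1%.

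The change in peak length was also tested in fixed windows of 20 kb, which count shortening and widening as well as appearance and loss. Covered length per window, scaled by each library's total, was analysed as log2(covered bp + 500) with limma over all 8 libraries. Of 30733 windows, 7519 were higher in ISC than at E12.5, or 24.5%, and 8511 were lower, or 27.7% (Benjamini-Hochberg adjusted p under 0.05). In 3702 of the higher windows neither E12.5 library had a peak, and in 4361 of the lower ones neither ISC library had. There that group shows no spread because no peak was called, so the p-value rests on the spread of other groups and windows. The median called window was higher by 1.44 or lower by 1.31 on this log2 scale, which understates changes of windows with little coverage. In all 7519 higher windows and in 7670 of the lower ones, the unscaled lengths of the ISC and E12.5 libraries did not overlap. The calls rest on these same lengths, so this is a description and lends them no further support. The share among all windows tested was not computed.

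**Figure D5:**
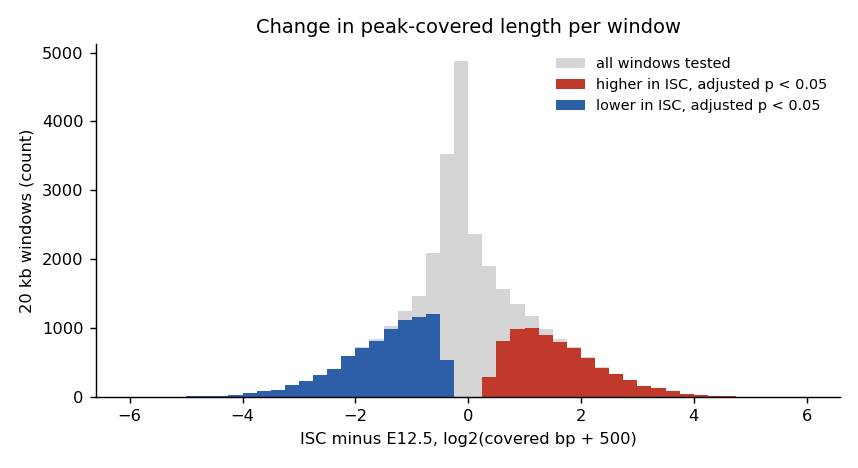
The histogram gives the number of 20 kb windows by their difference between ISC and E12.5 on the log2(covered bp + 500) scale, with the 7519 windows called higher in red and the 8511 called lower in blue. Both tails are of similar size, and most windows beyond 1 on either side were called.

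Which direction was more frequent depended on the scaling and on a library. Without scaling, 7439 windows were higher and 6111 lower, and the median of all windows moved by 0.11, from -0.08 to 0.02. Without E12.5 replicate 2 there were 6696 higher and 6119 lower windows, and with only peaks of −log10 q 10 or more 5043 and 4980. With lists of equal covered length there were 2442 higher and 3370 lower.

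Most called windows held a region that appeared or vanished. Of the higher windows, 78.1% held a gained region, and of the lower ones 69.1% held a lost region. Among all 30733 windows tested, 7837 held a gained region and 7032 a lost one. Windows and regions were drawn from the same peak lists, so this overlap is largely fixed in advance and is a description. A further 1617 higher and 2572 lower windows held neither a gained nor a lost region, so that in 21.5% and 30.2% of the calls the change lay in the length of regions found in both groups or in only some of the libraries. Windows with both a gained and a lost region numbered 432 of the 7837 that held a gained one.

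The largest increase was in a window on chromosome 9 from 66060001 to 66080000, inside the stretch with most gained regions. Peaks covered 15.1 and 18.7 kb of it in ISC and none at E12.5. The E14.5 libraries had 3.88 and 3.78 kb and the enterocyte libraries 2.90 and 4.14 kb. The limma difference was 4.90 ± 0.18 (SE, adjusted p = 2.78e-05), and both the step from E12.5 to E14.5 (adjusted p = 0.000334) and that from E14.5 to ISC (adjusted p = 0.000583) passed the threshold. These 3 contrasts share libraries, and the size of a step from or to a group at 0 depends on the added 500 bp.

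In the next 3 windows the E14.5 libraries had 0 to 1.21 kb. On chromosome 14 from 80400001 to 80420000, which holds the gained region on that chromosome described above, ISC had 14.53 and 16.6 kb and E12.5 none (limma adjusted p = 3.55e-05). The step to E14.5 was 0.24 (adjusted p = 0.488) and the step from E14.5 to ISC 4.56 (adjusted p = 8e-05). On chromosome 17 from 15940001 to 15960000, ISC had 14.54 and 16.5 kb, neither embryonic age had a peak, and enterocytes had 1.41 and 0.844 kb (limma adjusted p = 4e-05). On chromosome 9 from 57800001 to 57820000, ISC had 12.7 and 18.5 kb, enterocytes 6.98 and 8.05 kb, E14.5 1.19 and 1.21 kb and E12.5 none (limma adjusted p = 2.34e-05). This window had already risen at E14.5, by 1.64 (limma adjusted p = 0.000385), and rose by 3.14 from E14.5 to ISC (limma adjusted p = 5.66e-05).

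The largest decrease was on chromosome 7 from 149740001 to 149760000, within the longest lost region. The lowest of the 4 embryonic libraries had 19.88 kb of peaks in it, and no adult library had any. A window holds at most 20 kb, so all libraries lay at or near the limits of the scale. The limma difference from E12.5 to ISC was -5.43 ± 0.16 (SE, adjusted p = 2.34e-05), and that from E12.5 to E14.5 was -0.24 (adjusted p = 0.366). The other 3 windows had already fallen at E14.5. On chromosome 13 from 28740001 to 28760000, the E12.5 libraries had 13.4 and 16.3 kb, the E14.5 libraries 2.60 and 2.67 kb and the ISC libraries 0 (limma adjusted p = 0.000264 for the first step and 8.29e-05 for the second).

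The other 2 windows lay near each other on the proximal part of chromosome 7. From 6800001 to 6820000, the E12.5 libraries had 14.3 and 14.7 kb and the E14.5 libraries 0.488 and 0.583 kb. From 6720001 to 6740000, they covered 13.96 and 15.2 kb at E12.5 and still 4.88 and 5.13 kb at E14.5. Both had none in the adult libraries. In the first window the limma step to E14.5 was -4.02 (adjusted p = 0.000264) and the later step -0.96 (adjusted p = 0.00626). In the second the steps were -1.68 (adjusted p = 0.000907) and -3.30 (adjusted p = 8e-05). Whether the steps of the 2 windows differ from each other was not tested.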

How the data were processed

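The submitters' processing notes name Bowtie 1.1.2, SAMtools 1.2, bcl2fastq 1.8.4, MACS2 and the build mm9, with no role or order. Per the file headers, MACS 2.1.0.20140616 called narrow peaks for each library against its own input at a q-value of 0.05, from tags of 51 bp with 1 tag kept per position. The deposited lists give peak positions and lengths, a pileup signal, a fold enrichment ratio and −log10 values of p and q, all computed by the authors. Of these, −log10 q served to rank and threshold peaks in each list. Read counts were not analysed here, so precision rests on the 2 libraries per group.

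Merging, presence (at least 1 bp of peak) and covered lengths were computed in Python 3.11.15. Windows with a peak in at least 2 of the 8 libraries were fitted with limma 3.58.1 (4 group means, 4 residual degrees of freedom, eBayes with trend and robust). The code of both was run on simulated data. The changed windows simulated were few and all set well above no coverage. This run therefore does not measure the error rate of the window calls, many of which have a group without peaks. Named are the 8 longest regions in each direction, the 3 longest of each E14.5 class, the 4 windows of largest change in each direction at least 40 kb apart whose libraries did not overlap, and the 3 stretches with most changed regions. The comparison and lists were chosen with earlier results of these data known. The gene table supplied is on GRCm38.p6, coordinates were not converted, and planned gene names and markers were not used.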

Additional observations from a re-analysis of the deposited data

How the results depend on the processing

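Precision is limited by 2 libraries per group and by peak calling, since a region without a peak may hold signal under the threshold. Lists of equal covered length were added after seeing the data. In counts of regions, 6 of 10 values under settings other than leaving out a library lay within 1.5 times of the main value. The exceptions were peaks with −log10 q of at least 10 (6334 gained, 3742 lost) and equal covered length (1395 gained, 5469 lost). With a library left out, gained regions ranged from 10197 to 25163 and lost regions from 9393 to 20958.

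The share of gained regions present at E14.5 was 25.3% for a cover of at least 50% and 22.3% for equal covered length, and with a library left out 18.03 to 38.1%. The share of lost regions absent at E14.5 was 27.8% at −log10 q of at least 10 and 47.9% for equal covered length, and with a library left out 29.0 to 50.9%. The share of gained regions present in enterocytes was 36.6% at −log10 q of at least 10, 39.3% for merging within 1 kb, 32.1% for a cover of at least 50%, 44.3% for equal numbers of peaks and 79.7% for equal covered length (for enterocyte values, lists were matched to the smallest of 6 libraries), and with a library left out 24.5 to 43.5%. The share of lost regions absent in enterocytes was 97.9% both at −log10 q of at least 10 and for a cover of at least 50%, 96.0% for equal numbers of peaks and 83.4% for equal covered length, and with a library left out 94.5 to 98.1%. Most of these settings also redefined which regions were gained or lost, so the shares are not all of the same regions. The causes were not tested.

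For windows, 24 of 28 counts lay within 1.5 times. The others were 4751 higher windows at 50 kb, where fewer windows were tested, 4980 lower at −log10 q of at least 10, and 2442 higher and 3370 lower for equal covered length. With a library left out, higher windows ranged from 5314 to 6696 and lower from 6119 to 7465. The replicate numbers mark no shared animal or batch in the labels. Deviations of same-numbered libraries correlated at 0.17 between E12.5 and ISC. With the replicate number as a replicate block, 7302 windows were higher and 8087 lower. The 22 named regions kept their direction in all 176 values and their call in 175. The 8 named windows kept theirs in all 96, with an adjusted p of at most 0.00144 (limma).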
